A study of Rattus norvegicus with 9 samples.

Results

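Laminin receptors and basal lamina genes were followed as a set of 10 genes chosen by name: the integrin subunits Itgb4, Itgb8, Itgb1, Itga6 and Itga7, the dystroglycan gene Dag1, the dystrophin gene Dmd, and the laminin chain genes Lama2, Lama4 and Lamc1. The set was chosen with earlier results of these data known. A gene was measured where the array annotation ties a feature to that gene alone. Of the 10 genes, 7 were measured, each by 1 feature, out of 14506 genes tested. Dag1, Lama2 and Lama4 had no such feature in the annotation used here and are given no value.

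Schwann cells lie against a basal lamina, a sheet of laminin, collagen IV, nidogen and proteoglycan that they make themselves. Laminin is a trimer of an alpha, a beta and a gamma chain, and Schwann cells bind it through integrins, which are pairs of an alpha and a beta subunit, and through dystroglycan, which dystrophin and its relatives tie to the cytoskeleton. In the mouse, loss of Lamc1 or Itgb1 from Schwann cells blocks the sorting of axons before myelination.

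Transcript levels came from cultures of adult Sprague Dawley rats, read on Affymetrix Rat Gene 1.0 ST arrays, 3 arrays per group. The groups were Schwann cells grown from dorsal trunk SKPs (skin-derived precursors, which are skin cells that form spheres in culture), Schwann cells of the sciatic nerve, and dorsal trunk SKPs. Schwann cells of either origin had 1 passage and were lysed at confluence in Schwann cell medium, and SKPs were lysed as passaged spheres. The tissue label reads dermis on all 9 arrays, so groups follow the cell type label. The design text calls the 3 samples of each group independent, and the labels name no gene alteration, sort or drug. The comparisons ask how Schwann cells made from skin precursors stand to nerve Schwann cells and to the precursors. The labels give the SKP arrays as reanalysed earlier samples, so an array batch, sphere culture and the cell type cannot be told apart in differences from SKPs. In bulk cultures, fewer cells of a type and less RNA per cell cannot be told apart.

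The Schwann cell label was checked against its markers. Over 5 measured markers (Sox10, S100b, Erbb3, Cdh19 and Ngfr), the mean log2 level was 10.40 to 11.53 in SKP-derived Schwann cell arrays, 11.47 to 11.66 in nerve Schwann cell arrays and 5.48 to 5.92 in SKP arrays. SKP-derived array 2 had the lowest Schwann cell mean of its group and the highest mean of 7 dermal mesenchyme markers (9.84, against 7.34 and 8.48 in arrays 1 and 3). SKP array 3 had the lowest mesenchyme mean of its group (10.01, against 11.83 and 11.71). Nerve arrays 1, 2 and 3 had mesenchyme means of 8.08, 9.12 and 7.55. Deposited array medians differed by group, at 6.33 to 6.44 for SKP-derived, 6.82 to 6.87 for nerve and 6.20 to 6.27 for SKP arrays. Over the genes tested, the median difference was -0.01 for SKP-derived cells over SKPs, 0.46 for nerve cells over SKPs and -0.45 for SKP-derived over nerve cells. Cyclic loess, which removes level-dependent offsets between arrays, brought it to -0.03, -0.03 and -0.02, while centring each array on its median gave -0.14, -0.15 and 0.02. The 3 nerve arrays also held exactly the same value at 598 of 29214 features (2.05%), while this happened at 0 features in SKP-derived arrays and at 0 in SKP arrays.

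Itgb4, Itgb8, Itga7 and Dmd were far higher in both kinds of Schwann cell than in SKPs, whereas the differences of Itga6, Lamc1 and Itgb1 were small. Against SKPs, 5 of the 7 genes rose and 1 fell in SKP-derived Schwann cells at a limma adjusted p under 0.05, where 19.3% of all genes rose and 22.3% fell. In nerve Schwann cells 6 of 7 rose and 0 fell, where 49.7% of all genes rose and 14.9% fell. After cyclic loess, 4 rose and 1 fell in each comparison, against 18.6% rising and 23.9% falling over all genes in SKP-derived cells and 22.4% and 25.6% in nerve cells. SKP-derived arrays lay wholly above SKP arrays at 5 of the 7 genes and wholly below at 1, against 22.1% and 25.8% of all genes. Nerve arrays lay wholly above SKP arrays at 6 and wholly below at 1, against 55.8% and 17.8%. The median difference of the 7 genes was 2.26 in SKP-derived cells and 2.63 in nerve cells as deposited, and 2.23 and 2.16 after cyclic loess. Both comparisons use the same 3 SKP arrays. Because earlier results were known when the set was chosen, its counts are a description beside those of all genes and not a test.

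**Figure D1:**
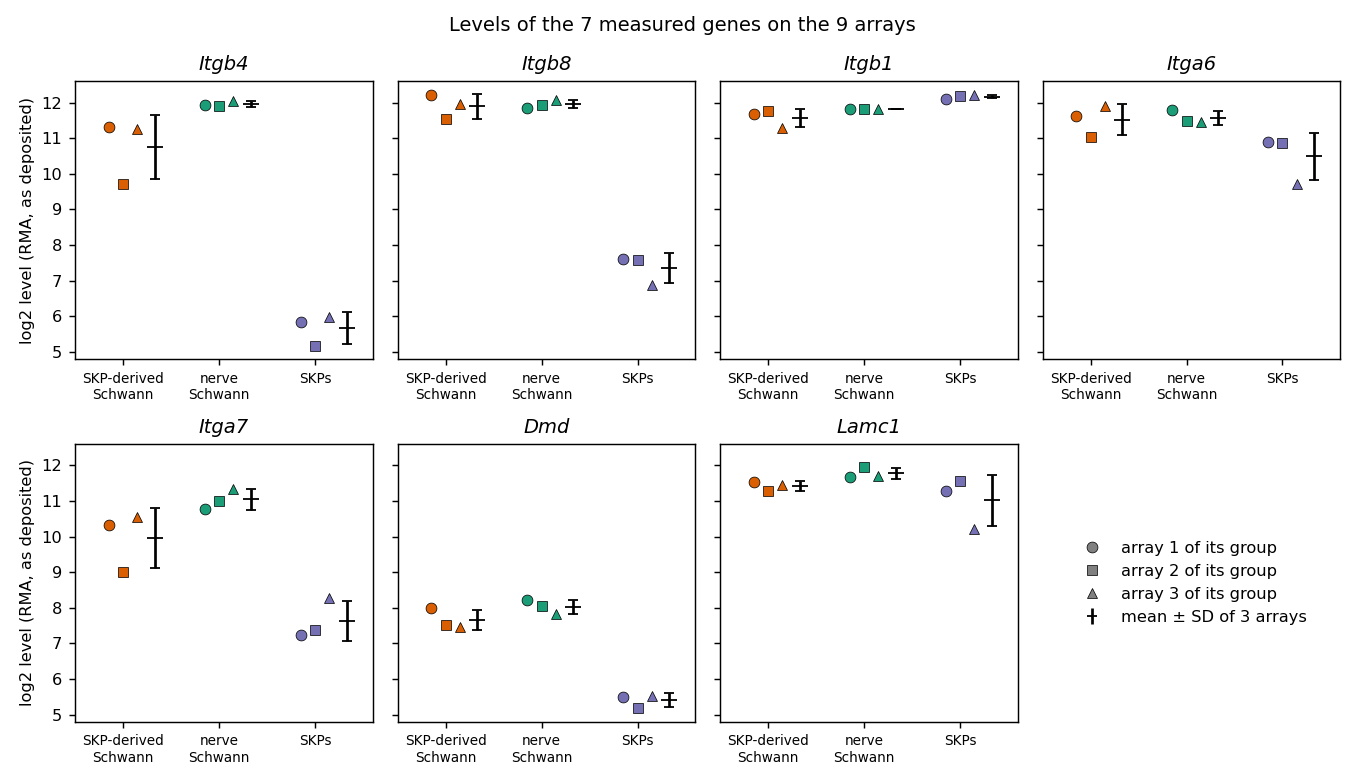
Log2 level (RMA, as deposited; y axis) of the 7 measured genes on each array of SKP-derived Schwann cells, nerve Schwann cells and SKPs (x axis). Point shapes give the array number within a group, and the bar at the right of each group is the mean ± SD of 3 arrays. Itgb4, Itgb8, Itga7 and Dmd lie above every SKP array in all 6 Schwann cell arrays, and Itgb1 lies below every SKP array in all 6.

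Among the beta subunits, Itgb4 had the largest difference. Itgb4 pairs with Itga6 into a laminin receptor known from epithelial hemidesmosomes and also found on Schwann cells. Its log2 level was 11.32, 9.73 and 11.25 in SKP-derived Schwann cell arrays 1 to 3, 11.92, 11.92 and 12.06 in nerve Schwann cell arrays, and 5.85, 5.15 and 5.98 in SKP arrays. The 3 groups did not overlap, and SKP-derived array 2 was the lowest Schwann cell array, still well above all SKP arrays. Itgb4 rose by 5.10 on the log2 scale in SKP-derived cells (SE 0.39, limma adjusted p = 1.60e-05) and by 6.30 in nerve cells (SE 0.39, limma adjusted p = 5.54e-06). Its level in SKPs was near the means of keratinocyte and skeletal muscle markers in the same arrays (5.65 to 5.74 and 5.36 to 5.54), and with no detection calls used here it was not tested whether it lay above background, so no fold is given. Keratinocytes also carry Itgb4, and the mean of 3 measured keratinocyte markers of 6 listed (Krt14, Krt10 and Col17a1) was 5.59 to 5.66 in SKP-derived, 6.24 to 6.26 in nerve and 5.65 to 5.74 in SKP arrays, and 5.78 to 5.87, 5.82 to 5.88 and 5.91 to 6.03 after cyclic loess.

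Itgb8, which pairs with an alpha V subunit and is best known for activating latent TGF-beta, was nearly level between the Schwann cell groups. It had log2 levels of 12.23, 11.53 and 11.95 in SKP-derived arrays, 11.85, 11.94 and 12.09 in nerve arrays, and 7.62, 7.59 and 6.87 in SKP arrays. All Schwann cell arrays were above all SKP arrays, and the Schwann cell groups overlapped. The difference from SKPs was 4.55 in SKP-derived cells (23.4-fold, SE 0.24, limma adjusted p = 2.69e-06) and 4.60 in nerve cells (24.3-fold, SE 0.24, limma adjusted p = 2.18e-06).

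Itgb1, the common partner of the laminin-binding alpha subunits, moved the other way and by little. Its log2 level was 11.67, 11.78 and 11.30 in SKP-derived arrays, 11.83 in each of the 3 nerve arrays, and 12.11, 12.18 and 12.22 in SKP arrays. The SKP arrays were highest without overlap. Itgb1 fell by 0.59 on the log2 scale in SKP-derived cells (SE 0.14, limma adjusted p = 0.0097), and it differed by -0.34 in nerve cells (SE 0.14, limma adjusted p = 0.0613) against a median gene at 0.46. After cyclic loess the nerve difference was -0.54 and was called (limma adjusted p = 0.0182). It was also called without SKP-derived array 2 or 3 (limma adjusted p = 0.0405 and 0.0212). Itgb1 is 1 of 298 genes with the same value in all nerve arrays, so its spread among nerve cultures is unknown. The fit pools that SD of 0 with the other groups and the moderated variance. The SE, and the calls that use it, may therefore understate the spread.

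The promoters of Itgb8 and Itgb1 are shown because these beta subunits had opposite differences from SKPs. The windows are the 250 bases before the RefSeq start, from RefSeq on build GRCr8, given 5′ to 3′ along the gene. Itgb8 is at chr6:146351246-146351495 on the minus strand and Itgb1 at chr19:73602027-73602276 on the plus strand. Capitals mark matches on either strand to a SOX core (AACAAT), a TEAD core (CATTCC) and a GC box (GGGCGG).
Itgb8: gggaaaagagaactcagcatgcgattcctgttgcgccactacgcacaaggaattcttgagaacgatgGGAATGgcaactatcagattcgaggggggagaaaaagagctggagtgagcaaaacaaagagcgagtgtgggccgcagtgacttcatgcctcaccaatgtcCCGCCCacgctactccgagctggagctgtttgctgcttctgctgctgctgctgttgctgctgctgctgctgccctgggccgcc
Itgb1: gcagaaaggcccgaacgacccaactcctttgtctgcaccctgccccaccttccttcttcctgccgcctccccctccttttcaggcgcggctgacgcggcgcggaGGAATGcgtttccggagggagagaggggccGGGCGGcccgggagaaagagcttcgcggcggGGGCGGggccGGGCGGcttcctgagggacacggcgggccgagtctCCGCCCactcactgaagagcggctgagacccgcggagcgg
Both windows held 1 TEAD core, at position -183 from the start in Itgb8 and -146 in Itgb1. Neither held AACAAT on either strand, and other forms of a SOX site were not searched. The GC box was found at 1 place in Itgb8 and at 4 in Itgb1. GC content was 56.4% in Itgb8 and 71.2% in Itgb1, with 11 and 28 CpG sites, against medians of 51.2% and 5 over all 33469 windows. Of all windows, 10.3% held the SOX core, 12.1% the TEAD core and 30.5% the GC box. These are letter matches in a short window and not binding data. Windows were at hand for 6 of the 10 genes (Itgb8, Itgb1, Lamc1, Dmd, Lama2 and Lama4).

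Both alpha subunits rose as deposited, and Itga7 also after cyclic loess. Itga7 pairs with Itgb1 and is the main laminin-binding integrin alpha subunit of muscle. Its log2 level was 10.32, 8.995 and 10.56 in SKP-derived arrays, 10.79, 11.00 and 11.35 in nerve arrays, and 7.25, 7.38 and 8.27 in SKP arrays. The 3 groups did not overlap, with nerve arrays highest. The difference from SKPs was 2.32 in SKP-derived cells (5.01-fold, SE 0.41, limma adjusted p = 0.00165) and 3.41 in nerve cells (10.6-fold, SE 0.41, limma adjusted p = 0.000134). Skeletal muscle carries Itga7 and Dmd, and the mean of 5 muscle markers (Myod1, Myog, Ckm, Actn2 and Myh4) was 5.35 to 5.59 in SKP-derived, 6.22 to 6.31 in nerve and 5.36 to 5.54 in SKP arrays, or 5.64 to 5.77, 5.83 to 5.88 and 5.66 to 5.78 after cyclic loess.

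Itga6, which pairs with either Itgb4 or Itgb1, was modestly higher in both kinds of Schwann cell (2.05-fold and 2.13-fold). It had log2 levels of 11.63, 11.05 and 11.90 in SKP-derived arrays, 11.80, 11.48 and 11.46 in nerve arrays, and 10.88, 10.87 and 9.71 in SKP arrays, where array 3 was lowest. The Schwann cell groups overlapped each other and not the SKPs. Itga6 rose by 1.04 in SKP-derived cells (SE 0.33, limma adjusted p = 0.03) and by 1.09 in nerve cells (SE 0.33, limma adjusted p = 0.0155). After cyclic loess neither was called (0.89 and 0.88, limma adjusted p = 0.0662 and 0.0612), nor after median centring (0.91 and 0.49, limma adjusted p = 0.0505 and 0.242). The call in SKP-derived cells also ended after quantile normalisation (limma adjusted p = 0.0505) and with only the 2 groups fitted (limma adjusted p = 0.0649). Without SKP array 3 the differences were 0.65 and 0.70, and the first was not called (limma adjusted p = 0.0581). The call in SKP-derived cells also ended without SKP-derived array 1 or 3 (limma adjusted p = 0.0829 and 0.0976), and that in nerve cells without nerve array 1 (limma adjusted p = 0.0563).

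**Figure D2:**
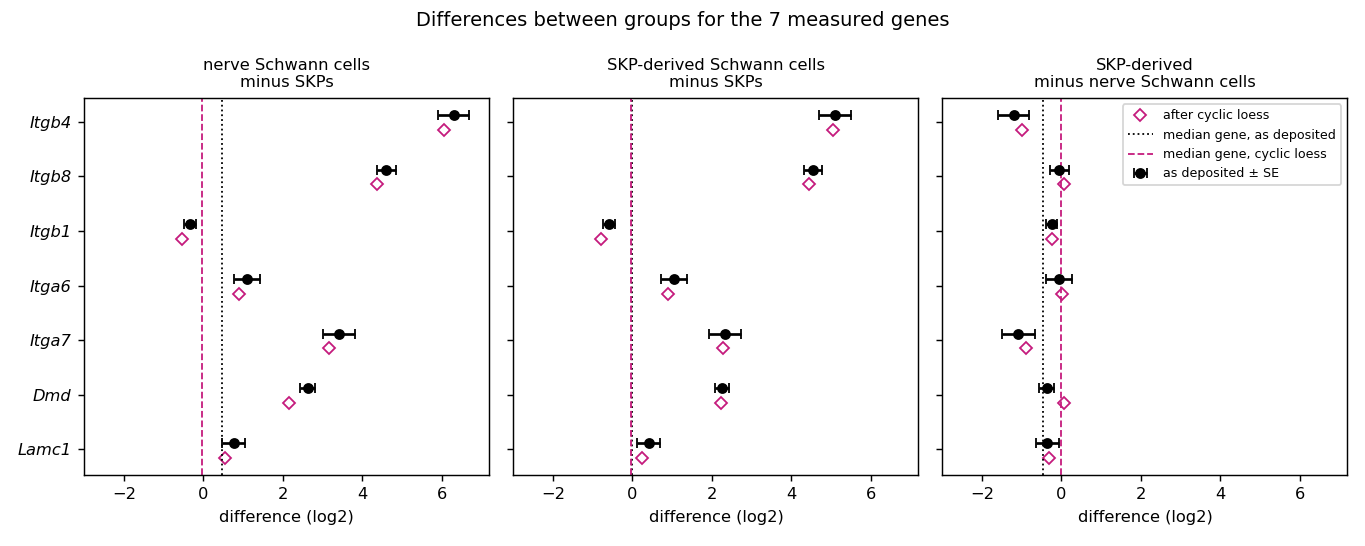
Difference of group means (log2, x axis) for each gene (y axis) in the 3 comparisons, with black points and SE bars as deposited and open diamonds after cyclic loess. Vertical lines give the median gene on each scale. Itgb4, Itgb8, Itga7 and Dmd lie far to the right of both lines against SKPs, and between the Schwann cell groups only Itgb4 (-1.20) and Itga7 (-1.09) lie more than 1 from 0 as deposited, against -0.996 and -0.89 after cyclic loess.

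Dmd encodes dystrophin, and peripheral nerve is known for a short dystrophin isoform that its feature cannot separate from the others. The log2 level of Dmd was 7.99, 7.53 and 7.46 in SKP-derived arrays, 8.22, 8.05 and 7.82 in nerve arrays, and 5.50, 5.17 and 5.53 in SKP arrays. All Schwann cell arrays were above all SKP arrays, and the Schwann cell groups overlapped. Dmd rose by 2.26 in SKP-derived cells (SE 0.19, limma adjusted p = 2.37e-05) and by 2.63 in nerve cells (SE 0.19, limma adjusted p = 9.85e-06). The SKP level of Dmd was also near the skeletal muscle marker mean of those arrays, whether it lay above background was not tested, and no fold is given.

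Lamc1, the gamma chain of most laminins, was the only laminin gene of the set that was measured. Its log2 level was 11.54, 11.28 and 11.45 in SKP-derived arrays, 11.67, 11.94 and 11.71 in nerve arrays, and 11.28, 11.56 and 10.21 in SKP arrays, with SKP array 3 far below the rest. SKP-derived and SKP arrays overlapped. Lamc1 differed by 0.41 in SKP-derived cells (SE 0.30, limma adjusted p = 0.302), and by 0.0036 without SKP array 3. In nerve cells it rose by 0.76 (SE 0.30, limma adjusted p = 0.0473), a call that ended after cyclic loess (0.55, limma adjusted p = 0.188), after median centring (0.15, limma adjusted p = 0.68), after quantile normalisation (0.67, limma adjusted p = 0.11), with the low-level filter (limma adjusted p = 0.0518), with only the 2 groups fitted (limma adjusted p = 0.0832) and without SKP array 3 (0.36, limma adjusted p = 0.0797). The call also ended without any 1 of the nerve or SKP-derived arrays (limma adjusted p = 0.0572 to 0.128). Its promoter window (chr13:68051987-68052236, minus strand, GRCr8, same marks) is shown beside that of Itgb1 because both windows have a GC content of 71.2%.
Lamc1: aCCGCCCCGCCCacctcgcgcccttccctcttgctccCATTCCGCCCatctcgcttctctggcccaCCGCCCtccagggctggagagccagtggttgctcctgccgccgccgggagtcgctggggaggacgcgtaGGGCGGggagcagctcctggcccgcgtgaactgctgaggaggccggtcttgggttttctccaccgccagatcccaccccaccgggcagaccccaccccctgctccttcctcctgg
It held the GC box at 5 places, some overlapping, the TEAD core once at position -213, and no AACAAT.

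Between the Schwann cell groups, Itgb4 was the gene called as deposited. Of the 7 genes, 0 were called higher and 1 lower in SKP-derived than in nerve Schwann cells, where 1.33% of all genes were higher and 42.3% lower. After cyclic loess 0 of 7 were called either way, where 0.731% of all genes were higher and 0.6% lower. SKP-derived arrays lay wholly below nerve arrays at 4 of the 7 genes (Itgb4, Itgb1, Itga7 and Lamc1) and wholly above at 0, against 59.1% and 3.19% of all genes. Itgb4 was lower by a log2 difference of -1.20 (95% interval -2.08 to -0.32, limma adjusted p = 0.034). That call ended after cyclic loess (-0.996, limma adjusted p = 0.176), after median centring (-0.73, 0.314) and without nerve array 1, 2 or 3 (limma adjusted p = 0.0784, 0.0789 and 0.0895). Without SKP-derived array 2 the Itgb4 difference was -0.68 and stayed called (limma adjusted p = 0.0472).

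Itga7 differed by -1.09 (95% interval -2.004 to -0.17, limma adjusted p = 0.056), Dmd by -0.37 (-0.79 to 0.05, limma adjusted p = 0.13) and Lamc1 by -0.35 (-1.02 to 0.32, limma adjusted p = 0.349). Itgb1 differed by -0.25 (-0.57 to 0.08, limma adjusted p = 0.189), Itgb8 by -0.06 (-0.59 to 0.48, limma adjusted p = 0.857) and Itga6 by -0.05 (-0.79 to 0.69, limma adjusted p = 0.905). All are to be read against a median gene at -0.45, and those of Dmd, Itgb8 and Itga6 were above 0 after cyclic loess (0.068, 0.066 and 0.0039) and those of all but Itgb4 and Itga7 after median centring. Itgb4 and Itga7 were lowest of all Schwann cell arrays in SKP-derived array 2, the array that also had the lowest Schwann cell marker mean and the highest mesenchyme marker mean. The part of that array's make-up in the differences was not tested beyond leaving it out, which left Itga7 at -0.60 (limma adjusted p = 0.15). Itga7 was called without SKP-derived array 3 (-1.39, limma adjusted p = 0.0376) or SKP array 3 (limma adjusted p = 0.0356), and Dmd without SKP-derived array 1 (-0.53, limma adjusted p = 0.0491).

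**Figure D3:**
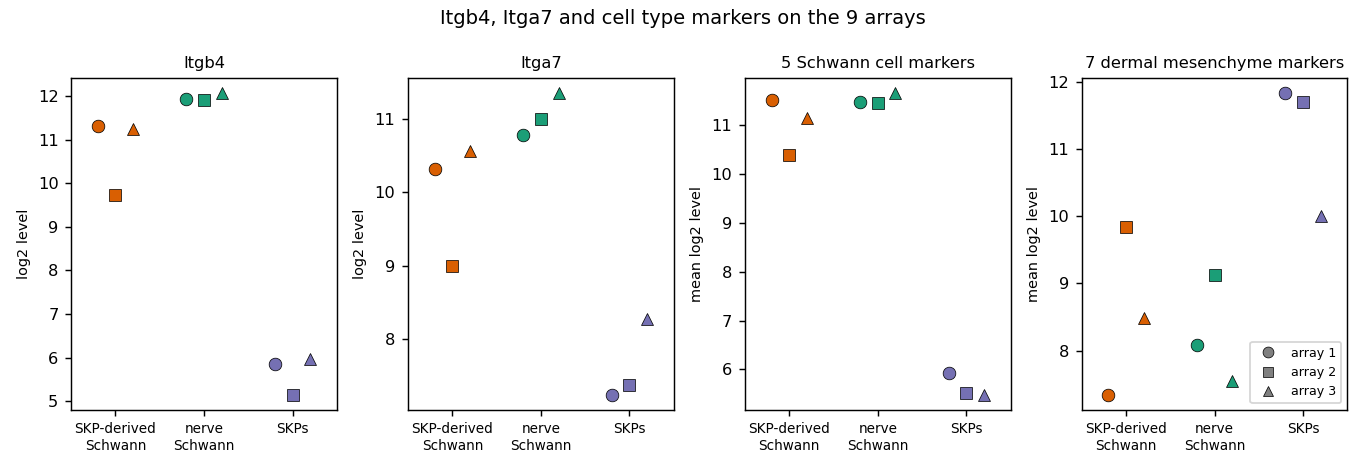
Log2 level of Itgb4 and Itga7, and mean log2 level of 5 Schwann cell and 7 dermal mesenchyme markers (y axes, ranges differ), on each array of the 3 groups (x axes; shapes give the array number). SKP-derived array 2 is lowest of the Schwann cell arrays in the first 3 panels (9.73, 8.995 and 10.40) and highest of them in the last (9.84).

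Among laminin chain genes, Lamb2, Lamc3 and Lama3 fell in both kinds of Schwann cell. Of 7 measured laminin genes of 11, Lamc1 included, 1 rose and 3 fell in SKP-derived cells (median -0.50, against 19.3% and 22.3% of all genes and their median of -0.01), and 3 rose and 3 fell in nerve cells (median 0.45, against 49.7% and 14.9% of all genes and their median of 0.46). After cyclic loess these counts were 1 and 3 (against 18.6% and 23.9% of all genes), and 0 and 3 (against 22.4% and 25.6%). Lamb2, a beta chain of synaptic and kidney basal laminae, had levels of 8.65, 8.04 and 8.78 in SKP-derived, 8.87, 9.06 and 9.31 in nerve and 10.10, 10.22 and 10.97 in SKP arrays. It fell by 1.94 in SKP-derived cells (limma adjusted p = 0.00042) and fell by 1.35 in nerve cells (limma adjusted p = 0.00181). Lamc3 fell by 1.80 in SKP-derived cells and fell by 1.21 in nerve cells, and Lama3, a chain of epithelial laminin, fell by 1.46 in SKP-derived cells and fell by 0.89 in nerve cells. Lama1 and Lamb3 rose in nerve cells as deposited (0.95 and 0.97), but were not called after cyclic loess (0.21 and 0.23, limma adjusted p = 0.142 and 0.134). Lamb1, the usual partner of Lamc1, had no feature of its own in the annotation used here.

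Of other basal lamina genes, Nid2 rose and Col4a1 fell in both kinds of Schwann cell. Of 7 measured of 14, 1 rose and 1 fell in SKP-derived cells (median 0.26, against 19.3% and 22.3% of all genes). In nerve cells 3 rose and 1 fell (median 0.54, against 49.7% and 14.9%). After cyclic loess, 2 rose and 2 fell in SKP-derived cells (against 18.6% and 23.9% of all genes). In nerve cells 2 then rose and 1 fell (against 22.4% and 25.6%). Nid2, which encodes a nidogen that links laminin to collagen IV, had levels of 11.38, 10.65 and 10.22 in SKP-derived, 10.75, 10.54 and 10.67 in nerve and 9.40, 9.49 and 8.45 in SKP arrays. It rose by 1.63 in SKP-derived cells (limma adjusted p = 0.00355) and by 1.54 in nerve cells (limma adjusted p = 0.0028). Col4a1, a chain of collagen IV, had levels of 8.73, 7.71 and 8.65 in SKP-derived, 8.50, 8.72 and 8.73 in nerve and 11.50, 11.57 and 10.58 in SKP arrays. It fell by 2.85 in SKP-derived cells (limma adjusted p = 0.000131) and fell by 2.57 in nerve cells (limma adjusted p = 0.000164). Agrn, the gene of the proteoglycan agrin, rose by 1.30 in nerve cells (limma adjusted p = 0.00068) and differed by 0.54 in SKP-derived cells (limma adjusted p = 0.0698, and 0.0409 after cyclic loess).

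Of the integrin subunits outside the set, Itga5 and Itgb5 fell in both kinds of Schwann cell. Of 8 measured alpha subunits of 12, 2 rose and 2 fell in SKP-derived cells (median -0.23, against 19.3% and 22.3% of all genes). In nerve cells 3 rose and 1 fell (median 0.28, against 49.7% and 14.9%). After cyclic loess, 1 rose and 3 fell in SKP-derived cells (against 18.6% and 23.9% of all genes). In nerve cells 1 then rose and 1 fell (against 22.4% and 25.6%). Itga5, the alpha subunit of the main fibronectin receptor, had levels of 6.81, 8.20 and 7.04 in SKP-derived, 7.35, 8.03 and 7.81 in nerve and 10.34, 10.57 and 10.06 in SKP arrays. It fell by 2.97 in SKP-derived cells (limma adjusted p = 0.000148) and fell by 2.59 in nerve cells (limma adjusted p = 0.000211). Itga2, a collagen receptor subunit, rose by 1.09 in nerve cells (limma adjusted p = 0.0182) but was not called after cyclic loess (0.47, limma adjusted p = 0.256), and it differed by 0.89 in SKP-derived cells (limma adjusted p = 0.0603). Itga4, another fibronectin receptor subunit, fell by 0.92 in SKP-derived cells (limma adjusted p = 0.0214), differed by 0.36 in nerve cells (limma adjusted p = 0.268), and was at -1.28 between them (limma adjusted p = 0.00648, and 0.104 after cyclic loess). The SKP-derived and SKP arrays overlapped at Itga4. Of 7 beta subunits, all measured, 2 rose and 2 fell in SKP-derived cells (median 0.21, against 19.3% and 22.3% of all genes). In nerve cells 4 rose and 1 fell (median 0.66, against 49.7% and 14.9%). After cyclic loess 2 rose and 2 fell in each (against 18.6% and 23.9%, and 22.4% and 25.6%, of all genes). Itgb5, a beta subunit of a vitronectin receptor, had levels of 9.02, 8.56 and 8.81 in SKP-derived, 8.31, 8.09 and 8.15 in nerve and 11.53, 11.49 and 10.55 in SKP arrays. It fell by 2.39 in SKP-derived cells (limma adjusted p = 9.54e-05) and fell by 3.00 in nerve cells (limma adjusted p = 2.44e-05). Itgb6 and Itgb7 rose in nerve cells as deposited (0.66 and 0.56) and were at -0.08 and -0.18 after cyclic loess, not called.

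The dystrophin complex held further genes that rose with Dmd. Of 11 measured of 17, 5 rose and 2 fell in SKP-derived cells (median 0.36, against 19.3% and 22.3% of all genes). In nerve cells 9 rose and 1 fell (median 1.31, against 49.7% and 14.9%). After cyclic loess 5 rose and 2 fell in each (against 18.6% and 23.9%, and 22.4% and 25.6%, of all genes). Prx encodes periaxin, which in mouse Schwann cells joins Drp2, a dystrophin relative, to dystroglycan. Prx had levels of 11.01, 9.75 and 10.86 in SKP-derived, 9.95, 9.22 and 9.04 in nerve and 6.55, 6.46 and 6.73 in SKP arrays. It rose by 3.96 in SKP-derived cells (limma adjusted p = 2.75e-05) and by 2.82 in nerve cells (limma adjusted p = 0.000129). Prx was 1.14 higher in SKP-derived than in nerve cells (limma adjusted p = 0.0237), though these groups overlapped. That call ended after cyclic loess (1.40, limma adjusted p = 0.069). Drp2 was uneven, with 10.21, 7.38 and 8.34 in SKP-derived, 7.36, 7.17 and 6.75 in nerve and 5.63, 5.64 and 4.82 in SKP arrays. Drp2 rose by 3.28 in SKP-derived cells (limma adjusted p = 0.00192) and by 1.73 in nerve cells (limma adjusted p = 0.0277), where it was not called after cyclic loess (1.27, limma adjusted p = 0.11).

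The syntrophin gene Sntb1 rose by 1.96 in SKP-derived cells and by 1.85 in nerve cells. The sarcoglycan genes went both ways. Sgcd fell by 2.40 in SKP-derived cells and fell by 2.20 in nerve cells. Sgce rose by 1.10 in SKP-derived cells (limma adjusted p = 0.000354) and by 1.31 in nerve cells (limma adjusted p = 9.82e-05). Sspn, the gene of the small membrane protein sarcospan, rose by 1.88 in nerve cells (limma adjusted p = 0.000384) but differed by 0.21 in SKP-derived cells (limma adjusted p = 0.583). The difference between these groups was -1.68 (limma adjusted p = 0.00313, and 0.0558 after cyclic loess). Utrn, the dystrophin relative utrophin, rose by 0.85 in nerve cells (limma adjusted p = 0.0155, and 0.0627 after cyclic loess) and differed by 0.36 in SKP-derived cells (limma adjusted p = 0.288). Of the enzymes that place the laminin-binding sugars on dystroglycan, 7 of 13 were measured. In SKP-derived cells 1 rose and 1 fell (median 0.12, against 19.3% and 22.3% of all genes). In nerve cells 3 rose and 1 fell (median 0.27, against 49.7% and 14.9%). After cyclic loess 1 rose and 1 fell in each (against 18.6% and 23.9%, and 22.4% and 25.6%, of all genes). Gmppb, which makes the sugar donor GDP-mannose, fell by 1.77 in SKP-derived cells and fell by 1.44 in nerve cells, and the mannosyltransferase gene Pomt2 rose by 0.94 in nerve cells.

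**Figure D4:**
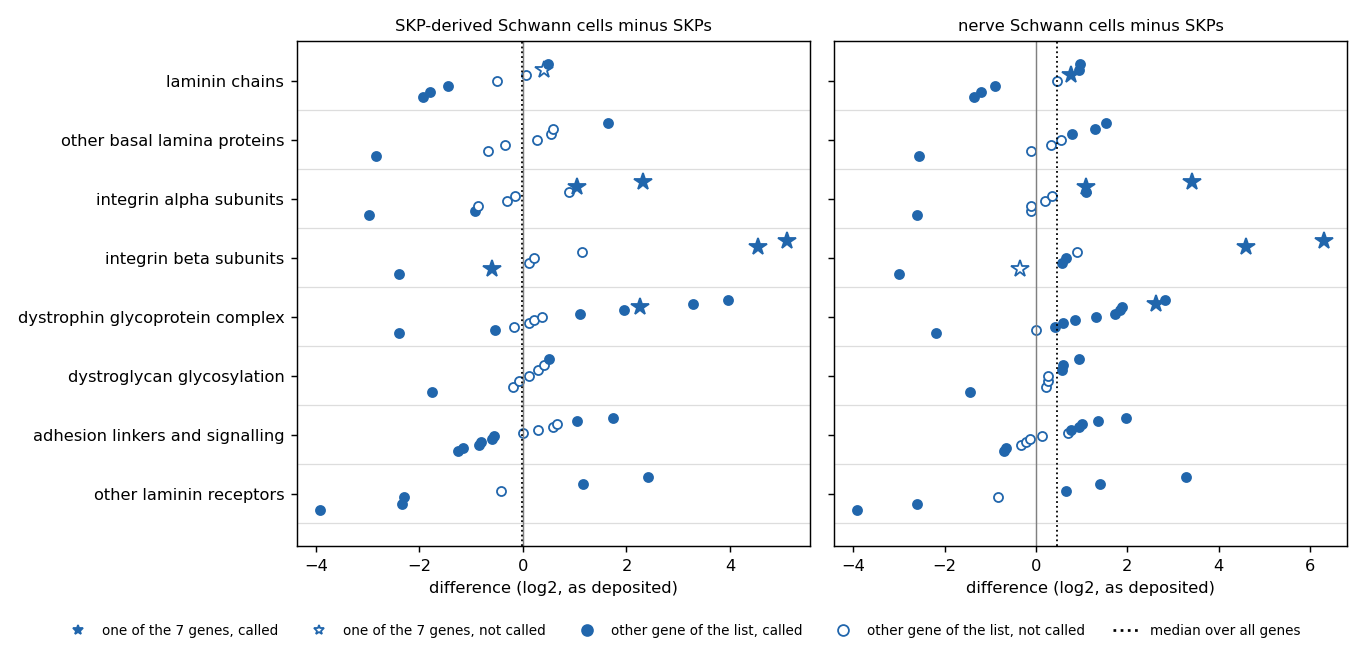
Log2 difference from SKPs (x axis, as deposited) of the measured genes of 8 lists (y axis), in SKP-derived Schwann cells at the left and nerve Schwann cells at the right. Stars are the 7 genes of the set, filled symbols were called at a limma adjusted p under 0.05, and the dotted line is the median over all genes. Itgb4 (5.10 and 6.30) and Itgb8 (4.55 and 4.60) lie farthest to the right in both panels.

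Of the genes that link integrins to the cytoskeleton, Fermt2 and Parva rose in both kinds of Schwann cell. Of 12 measured of 14, 2 rose and 6 fell in SKP-derived cells (median -0.29, against 19.3% and 22.3% of all genes). In nerve cells 5 rose and 2 fell (median 0.42, against 49.7% and 14.9%). After cyclic loess, 2 rose and 6 fell in SKP-derived cells (against 18.6% and 23.9% of all genes). In nerve cells 5 then rose and 4 fell (against 22.4% and 25.6%). Fermt2, which encodes an integrin activator of the kindlin family, rose by 1.73 in SKP-derived cells (limma adjusted p = 4.67e-05) and by 1.97 in nerve cells (limma adjusted p = 2.07e-05). Parva, which binds integrin-linked kinase, rose by 1.04 in SKP-derived cells and by 0.94 in nerve cells. Tln1, a talin gene, fell by 1.16 in SKP-derived cells (limma adjusted p = 0.00419) and fell by 0.70 in nerve cells (limma adjusted p = 0.0286). Zyx, the zyxin gene, fell by 1.26 in SKP-derived cells (limma adjusted p = 0.000916) and differed by -0.32 in nerve cells (limma adjusted p = 0.188). Cd151, a tetraspanin that associates with laminin-binding integrins, differed by 0.58 in SKP-derived cells (limma adjusted p = 0.134) and by 0.70 in nerve cells (limma adjusted p = 0.0552).

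Among other laminin-binding surface proteins, 6 of 7 were measured. In SKP-derived cells 2 rose and 3 fell (median -1.36, against 19.3% and 22.3% of all genes). In nerve cells 3 rose and 2 fell (median -0.09, against 49.7% and 14.9%). After cyclic loess, 2 rose and 3 fell in SKP-derived cells (against 18.6% and 23.9% of all genes). In nerve cells 2 then rose and 2 fell (against 22.4% and 25.6%). Of the syndecans, heparan sulphate proteoglycans of the cell surface, Sdc3 rose and Sdc1 fell in both kinds of Schwann cell. Sdc3 had levels of 11.04, 9.64 and 11.00 in SKP-derived, 11.37, 11.39 and 11.49 in nerve and 8.07, 7.72 and 8.61 in SKP arrays, a rise of 2.43 in SKP-derived cells (limma adjusted p = 0.000649) and 3.29 in nerve cells (limma adjusted p = 8.69e-05). Sdc1 had levels of 7.05, 8.36 and 7.56 in SKP-derived, 7.75, 7.63 and 7.62 in nerve and 11.67, 11.67 and 11.38 in SKP arrays, and fell by 3.92 in SKP-derived cells (limma adjusted p = 1.08e-05) and fell by 3.90 in nerve cells (limma adjusted p = 1.08e-05). Sdc2 fell by 2.31 in SKP-derived cells (limma adjusted p = 0.0211) and differed by -0.84 in nerve cells (limma adjusted p = 0.296). Its SKP-derived levels were uneven (8.09, 10.53 and 7.98) and overlapped the SKP levels (11.81, 11.27 and 10.44). Sdc4 differed by -0.42 in SKP-derived cells (limma adjusted p = 0.125) and by 0.65 in nerve cells (limma adjusted p = 0.018, and 0.132 after cyclic loess), and was at -1.07 between them (limma adjusted p = 0.00449, and 0.0651 after cyclic loess). Bcam, a receptor for Lama5, rose by 1.15 in SKP-derived cells (limma adjusted p = 0.000276) and by 1.41 in nerve cells (limma adjusted p = 6.67e-05). Rpsa, a ribosomal protein gene also known as a laminin receptor, fell by 2.34 in SKP-derived cells and fell by 2.603 in nerve cells, with its other feature at -2.17 and -2.33.

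Over the 9 arrays, the genes whose level tracked Itgb4 most closely were Slc22a23, Cuedc2 and Tmprss5, with Pearson correlations of 0.997, 0.997 and 0.996. Those closest to Itgb8 were Gfra1, a receptor for the growth factor GDNF, Gpm6b, a proteolipid protein of glia, and Fads1, a fatty acid desaturase, at 0.998, 0.997 and 0.995. These values describe 9 arrays that fall into 3 groups, and 1407 genes passed 0.9 with Itgb4 and 1111 with Itgb8. Within the set, Itgb4 correlated with Dmd at 0.984, with Itgb8 at 0.971 and with Itga7 at 0.970, and with Lamc1 at 0.602 and Itgb1 at -0.76.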

How the data were processed

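The deposited log2 values of 29214 features on 9 arrays were used as they are. The authors made them with RMA, in Affymetrix Expression Console as the submitters' processing notes list it. The sources used here do not say whether all arrays were normalised together. Precision is limited by 3 arrays per group.

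Only the 15310 features with 1 gene symbol in the platform annotation were named (323 had several and 13581 none). For a gene with several features the brightest on average was kept, leaving 14506 genes. Group means over 9 arrays were fitted with limma 3.58.1 in R 4.3.3 (lmFit, eBayes). Benjamini-Hochberg adjustment ran over all genes of a comparison, and calls needed an adjusted p under 0.05. On simulated data for nerve Schwann cells minus SKPs (14506 genes, 200 changed), 51% of changes of 1 log2 unit and 92.5% of changes of 2 were recovered. The simulation had no offset between groups, and in the data far more genes were called in that comparison (7211 higher and 2158 lower). The recovered shares therefore need not hold for the real comparison.

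The genes and lists were chosen with earlier results of these data known. Genes named are the set, 9 fixed partners (5 measured), and the 3 genes most correlated with Itgb4 and with Itgb8. Others were drawn from up to 4 called genes of each list per comparison with the largest differences, and not all of these are named. Sgce was added beside Sgcd. Alternatives were other scalings, a low-level filter, other feature rules and variance models, a replicate block and arrays left out. Marker means in SKP-derived, nerve and SKP arrays were 5.14 to 5.31, 5.79 to 5.96 and 5.20 to 7.18 for macrophages, 5.25 to 5.56, 6.19 to 6.28 and 5.04 to 5.20 for endothelium, 6.52 to 6.98, 7.13 to 7.28 and 6.33 to 6.52 for smooth muscle and pericytes, 7.57 to 8.69, 8.28 to 9.11 and 7.96 to 8.43 for perineurium, and 5.65 to 5.93, 5.58 to 5.80 and 6.53 to 7.44 for melanocytes.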

Additional observations from a re-analysis of the deposited data

How the results depend on the processing

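The differences of Itgb4, Itgb8, Itga7 and Dmd from SKPs kept their direction and their call in both kinds of Schwann cell under every alternative run (150 of 150 values). Dmd had no value where genes below the median level were left out. The alternative without both SKP-derived array 2 and SKP array 3 was added after seeing the data. The number of the 7 genes called lower in nerve Schwann cells was 1 instead of 0 after median centring, cyclic loess and quantile normalisation and when only the 2 groups were fitted (Itgb1 in each), and 0 to 1 with an array left out. The number called higher there was 4 to 6 with an array left out, and in SKP-derived cells 4 to 5 rose and 1 fell.

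Between the Schwann cell groups, the number called lower in SKP-derived cells was 0 after median centring, cyclic loess, quantile normalisation and the low-level filter, 2 (Itgb4 and Itga7) with the replicate block and without both doubted arrays, and 0 to 2 with an array left out. Same-numbered arrays of different groups deviated from their group means with correlations of -0.12 to 0.29 over 9 pairs, and arrays with different numbers with -0.27 to 0.18 over 18, so the numbers were not taken to pair arrays. With the replicate block Itga7 was at -1.09 (limma adjusted p = 0.0259). Signs turned only in this comparison and at no called difference. After median centring Dmd was at 0.10, Itga6 at 0.42, Itgb1 at 0.23, Itgb8 at 0.41 and Lamc1 at 0.12. After cyclic loess Dmd was at 0.068, Itga6 at 0.0039 and Itgb8 at 0.066. With an array left out Itga6 ranged from -0.24 to 0.19 and Itgb8 from -0.22 to 0.13, and without both doubted arrays they were at 0.19 and 0.13. The cause was not tested.

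Over all genes, nerve Schwann cells had 7211 higher and 2158 lower than SKPs as deposited, 2474 and 4588 after median centring, 3244 and 3716 after cyclic loess, and 3223 and 3743 after quantile normalisation. The higher share was 77.0%, 35.0%, 46.6% and 46.3%. With the low-level filter, which tests fewer genes, 2611 were higher. SKP-derived cells had 193 higher and 6140 lower than nerve cells (3.05% higher), 482 and 234 after median centring (67.3%), 106 and 87 after cyclic loess (54.9%), 110 lower after quantile normalisation (54.2% higher), 47 and 553 with the filter, 296 higher when only the 2 groups were fitted, and 326 higher without both doubted arrays. With an array left out, 75 to 295 were higher and 3680 to 6975 lower. The share of higher calls of SKP-derived cells over SKPs was 46.5% as deposited, 34.7% after median centring and 43.9% after cyclic loess.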
